A study of Rattus norvegicus with 9 samples.

Results

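Cxcr4, Cxcl12 and Ackr3 encode a chemokine receptor, its ligand and the second, atypical receptor of that ligand, and their RNA was followed in rat hearts after coronary ligation. They are 3 of the 5760 genes listed in either of the deposited tables and were taken by gene name. All 3 are among the 4288 genes of the table of the Cal and model groups, and Cxcr4 and Cxcl12 are among the 2458 genes of the table of the model and sham groups, in which Ackr3 is not listed. Cxcr4 was selected on the normalized counts of the libraries headed Cal and Con, between which it had the largest fall among called genes that did not overlap and averaged 100 or more in the higher group, and Cxcl12 and Ackr3 were taken as its ligand and the other receptor of that ligand. The values of that comparison are a description and carry no test. Since the same Cal libraries enter the comparison with Model, the values of Cxcr4 there are a description as well.

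CXCL12 is a chemokine made by stromal and endothelial cells that retains leukocytes and progenitor cells in tissues. CXCR4 couples to inhibitory G proteins and steers migration towards CXCL12, whereas ACKR3 recruits arrestins, binds CXCL12 and CXCL11 and removes them by uptake. In the heart, the system is known for its induction under hypoxia and for the recruitment of cells to infarcted muscle.

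Hearts of 9 male Sprague Dawley rats were sequenced, 3 from each group, drawn at random from larger groups. Sham rats, called Control in the labels and Con in the tables, had surgery without ligation and distilled water. Model rats had the left anterior descending coronary artery tied and received distilled water, and Cal rats had the same ligation and received calycosin, an isoflavone of Astragalus, by mouth at 80 mg/kg per day. Treatment lasted 28 days in every group, and the age of the rats is not given in the sources used here. Whether the piece of heart held scar or remote muscle is not stated in the sources used here.

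The headings of the deposited tables disagree, and every direction below depends on them. In the table of the Cal and model groups, the authors' column of means named Cal averages the samples headed Model, and the one named Model averages the samples headed Cal. In the table of the model and sham groups, the sample columns are headed Cal and Con, and the column of means named Model averages those headed Cal. Libraries are named here by their sample headings. If the mean columns are right, the libraries headed Cal came from untreated model rats and those headed Model from treated rats, and the tables do not settle which is right. The libraries headed Cal are the same in both tables, with equal reads in 986 of 986 shared genes, so both comparisons share them. Values are normalized counts, which are reads of a gene divided by a size factor of the library. A library had 2860826 to 3998471 reads on the genes listed for Cal and model, and 3270460 to 4659882 on those of the other table. The cardiomyocyte gene Myh6, listed in the second table, averaged 335145 ± 1036 normalized counts in Cal libraries and 275029 ± 33746 in Con libraries (SD, n = 3 each).

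The 250 bases before the annotated start of each rat gene are shown because the 3 genes did not move together, and the letters allow their promoters to be compared. They come from RefSeq on build GRCr8, 5′ to 3′ on the strand of the gene, and capitals mark the motifs searched on both strands, which were TATAAA (the TATA box), GGGCGG (the GC box bound by Sp1), GCGTG and ACGTG (the core bound by hypoxia-inducible factors).
Cxcr4, chr13:42634289-42634538, minus strand: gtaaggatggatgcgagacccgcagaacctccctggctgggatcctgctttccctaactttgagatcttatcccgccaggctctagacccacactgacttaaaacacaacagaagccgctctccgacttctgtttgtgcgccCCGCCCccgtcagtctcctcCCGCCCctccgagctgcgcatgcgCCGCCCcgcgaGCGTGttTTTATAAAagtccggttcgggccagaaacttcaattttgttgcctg
Cxcl12, chr4:152060531-152060780, plus strand: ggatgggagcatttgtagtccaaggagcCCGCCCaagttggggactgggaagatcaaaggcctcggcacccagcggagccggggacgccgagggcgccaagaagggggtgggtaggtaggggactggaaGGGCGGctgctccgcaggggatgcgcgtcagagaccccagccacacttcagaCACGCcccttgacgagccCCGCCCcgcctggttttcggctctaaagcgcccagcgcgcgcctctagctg
Ackr3, chr9:98247104-98247353, plus strand: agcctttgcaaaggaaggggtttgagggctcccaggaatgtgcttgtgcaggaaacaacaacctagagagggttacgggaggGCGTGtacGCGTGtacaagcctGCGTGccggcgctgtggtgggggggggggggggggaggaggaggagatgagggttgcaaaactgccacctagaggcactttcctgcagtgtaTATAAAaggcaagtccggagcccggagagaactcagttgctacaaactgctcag
The Cxcr4 window held TATAAA on both strands in overlapping positions, between 46 and 39 bases before the start, and the Ackr3 window held it 54 to 49 bases before the start, while the Cxcl12 window held none. TATAAA occurred in 12.93% of 33469 promoters of this length. GGGCGG, present in 30.47% of promoters, occurred 3 times before Cxcr4 and 3 times before Cxcl12 and not before Ackr3. GCGTG, present in 25.89%, occurred once before Cxcr4, once before Cxcl12 and 3 times before Ackr3, and ACGTG, present in 16.57%, occurred in none of the 3 windows. The windows were rich in G and C, with 57.6% for Cxcr4, 67.6% for Cxcl12 and 58% for Ackr3 against a median of 51.2% over all promoters. A match describes letters and not a bound site.

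Cxcr4 RNA was most abundant in the sham libraries, intermediate in the libraries headed Model and lowest in those headed Cal. The gene (ENSMUSG00000045382, protein coding) is placed by the tables on the minus strand of mouse chromosome 1, from 128588199 to 128592293, since the identifiers are those of mouse genes although the animals were rats, and the tables name no build. The normalized count was 52.9 in Model 1, 24.4 in Model 2 and 29.7 in Model 3, from 49, 20 and 31 reads. In the libraries headed Cal it was 7.38, 5.63 and 14.5, from 8, 6 and 17 reads. The groups did not overlap, but they came close, since the lowest Model library was 1.68 times the highest Cal library. Cxcr4 was 3.89-fold lower in the libraries headed Cal, with means of 9.18 ± 4.71 and 35.7 ± 15.2 (SD, n = 3 each). The fitted log2 difference of Cal minus Model was -1.87 (SE 0.44) on log2(normalized count + 1), a scale that understates changes of low genes. No test is given, because Cxcr4 was chosen for its low values in these Cal libraries. The call used here for other genes was an adjusted p under 0.05 from limma over the 4288 listed genes with a log2 difference beyond 1, which 60.1% of them passed in either direction and 31.6% with lower values in Cal, while 98.2% did not overlap between the groups. The low counts limit the precision, as the 6 reads of Cal 2 have an exact Poisson 95% interval of 2.20 to 13.1 reads, which covers counting error only.

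**Figure D1:**
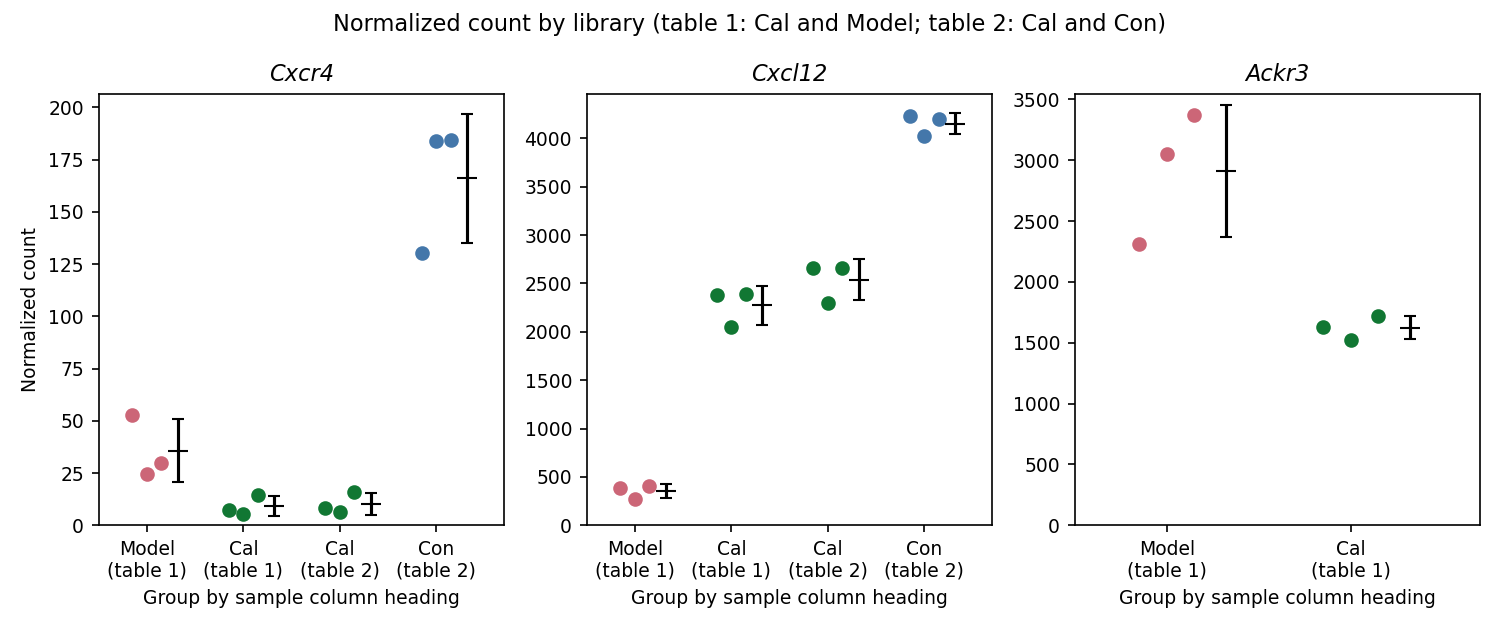
Normalized count of Cxcr4, Cxcl12 and Ackr3 in each library (points) with the group mean and SD, by sample heading, for the table of Cal and Model and the table of Cal and Con, which the title of the plot numbers in that order. Cxcr4 sits near 0 in the libraries headed Cal of both tables and between 130 and 184 in those headed Con.

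Cxcl12 moved the other way in the same comparison, and by more. The gene (ENSMUSG00000061353, protein coding) is placed on the plus strand of mouse chromosome 6, from 117168535 to 117181367. Its normalized count was 389, 268 and 406 in Model 1 to 3 and 2383, 2045 and 2390 in Cal 1 to 3. Every library headed Cal was at least 5.03 times the highest library headed Model. Cxcl12 was 6.41-fold higher in the libraries headed Cal, with means of 2273 ± 197 and 354 ± 75.2 (SD, n = 3 each), and the log2 difference was 2.70 (SE 0.19, adjusted p = 0.000123, limma). It passed the call, as 28.4% of the listed genes did with higher values in Cal, and it ranked 163 among the rises of the 4288 genes.

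Ackr3 was lower in the libraries headed Cal, by less than the fold limit. The gene (ENSMUSG00000044337, protein coding) is placed on the plus strand of mouse chromosome 1, from 90203980 to 90216751. Its normalized count was 2311, 3050 and 3368 in Model 1 to 3 and 1630, 1525 and 1717 in Cal 1 to 3. The groups did not overlap, and the libraries headed Model spread more widely than those headed Cal. The means were 2910 ± 542 and 1624 ± 95.8 (SD, n = 3 each), a 1.79-fold difference, and the log2 difference of Cal minus Model was -0.82 (SE 0.17, adjusted p = 0.00324, limma). An adjusted p under 0.05 without the fold limit was reached by 99.6% of the listed genes. Of the listed genes, 71.5% had a larger absolute difference. After quantile normalization of the libraries the difference was -0.29 with an adjusted p of 0.140 from limma, within a range of 8.43e-05 to 0.140 over all alternatives, so this gene depended on the scaling.

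The tables list only genes that the authors' own test on these libraries had selected, and the adjusted p-values above are therefore a second test of a chosen gene and not independent evidence. The median log2 difference of all listed genes was -0.52 for Cal minus Model. Relative to that median, Cxcr4 was at -1.34, Cxcl12 at 3.22 and Ackr3 at -0.30, and after quantile normalization, relative to its own median, they were at -1.78, 3.15 and -0.18. By the mean columns, these directions are higher Cxcr4, lower Cxcl12 and higher Ackr3 in treated than in untreated model rats.

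**Figure D2:**
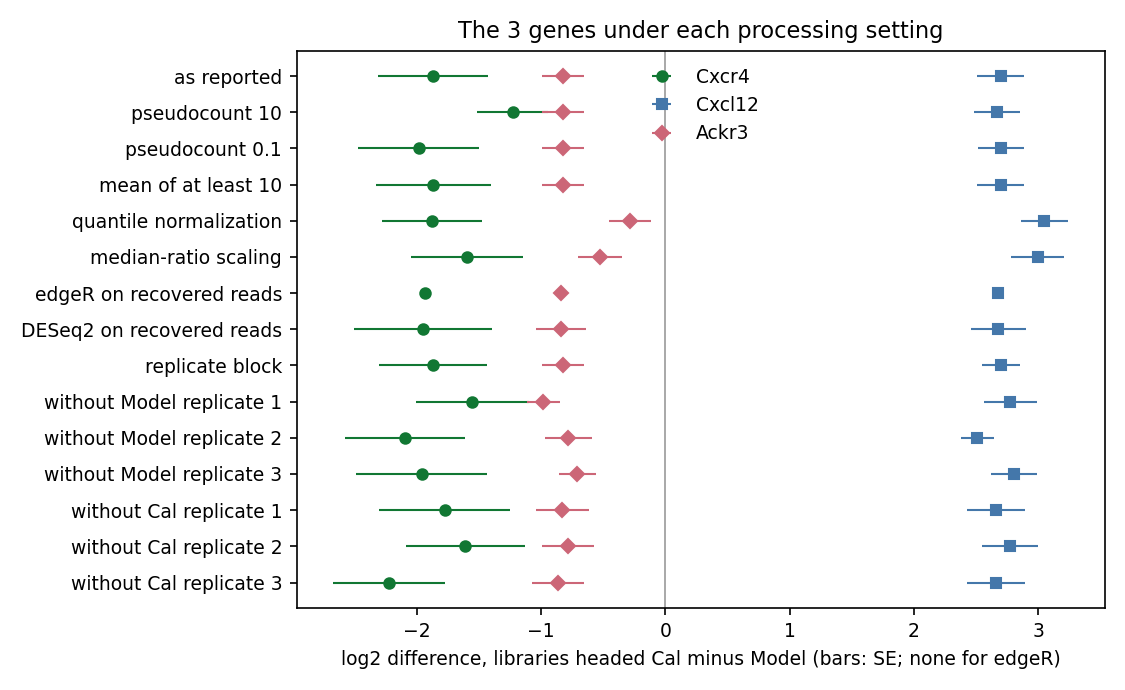
Log2 difference of Cal minus Model for the 3 genes (x axis) under each processing setting (y axis), with bars for the SE and none for edgeR. Cxcr4, which was chosen for its low values in the libraries headed Cal, stays below 0 in every setting. Cxcl12 stays above 0, and Ackr3 comes nearest to 0, at -0.29, under quantile normalization.

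In the libraries headed Cal and Con, the comparison on which it was chosen, Cxcr4 had 130, 184 and 184 normalized counts in Con 1 to 3, from 140, 187 and 182 reads, and 8.25, 6.31 and 16.2 in Cal 1 to 3. The lowest library headed Con was 8.06 times the highest headed Cal. The means were 166 ± 30.9 and 10.3 ± 5.23 (SD, n = 3 each), a 16.2-fold difference, and the fitted log2 difference was -3.97 (SE 0.34). Of all genes listed for Cal and Con, 29.0% passed the same call, 10.9% with lower values in Cal, 99.8% had an adjusted p under 0.05 from limma, and 97.4% did not overlap between the groups. Among the 111 genes lower in the libraries headed Cal that passed the call, did not overlap and averaged 100 or more in the higher group, Cxcr4 was followed by Inka1 at -3.81 and by Hey1, a Notch target of arterial endothelium, at -3.07. Without the limit on the mean, Cxcr4 ranked 3 among the falls of the 2458 genes.

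Cxcl12 differed less between these groups. Its normalized count was 4229, 4024 and 4205 in Con 1 to 3 and 2665, 2293 and 2665 in Cal 1 to 3. The groups did not overlap, and the lowest Con library was 1.51 times the highest Cal library. The means were 4152 ± 112 and 2541 ± 215 (SD, n = 3 each), a 1.63-fold difference, and the fitted log2 difference of Cal minus Con was -0.71 (SE 0.08). It was -1.16 after quantile normalization and -0.995 after median-ratio scaling, so its size depended on the scaling. The median over all listed genes was 0.37 here, and relative to it Cxcr4 was at -4.35 and Cxcl12 at -1.08. By the mean columns, both genes were lower in untreated model rats than in sham rats.

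The shared libraries headed Cal allowed the 3 groups to be put on a common scale, by multiplying the second table by 0.894. The tables were normalized separately, so these levels carry no test. Relative to the mean of Con, Cxcr4 stood at 24% in the libraries headed Model and 6.18% in those headed Cal, and Cxcl12 at 9.55% in Model and 61.2% in Cal. The order was therefore Con, Model, Cal for Cxcr4 and Con, Cal, Model for Cxcl12. No neighbours in either order overlapped, and the share of shared genes that also kept 3 groups apart was not computed. Of the genes listed for Cal and Model 98.2% did not overlap, and 97.4% of those listed for Cal and Con, the comparison on which Cxcr4 was chosen.

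**Figure D3:**
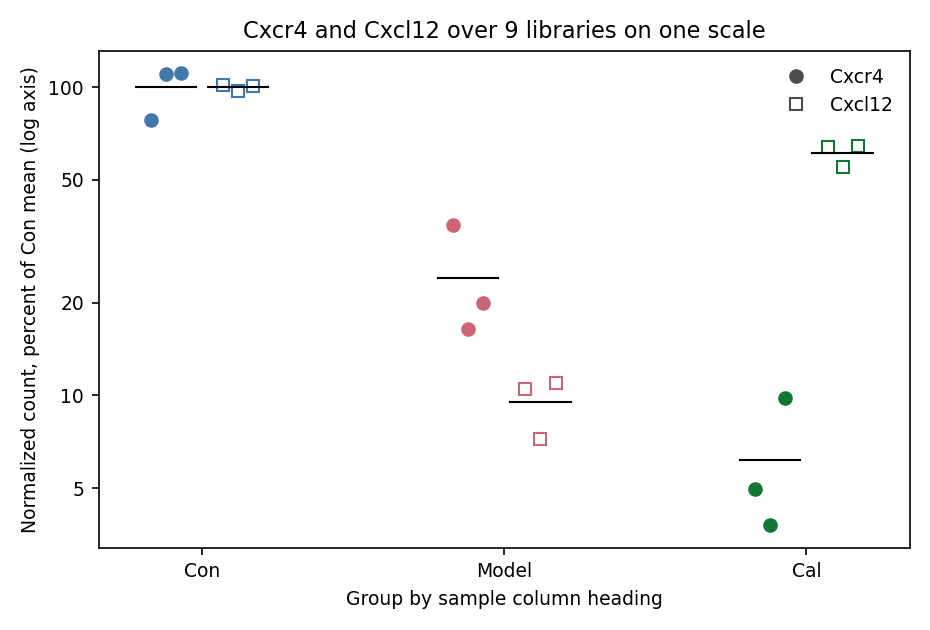
Normalized count of Cxcr4 and Cxcl12 in the 9 libraries as a percentage of the Con mean (log axis), by sample heading, after placing both tables on the scale of the Cal and Model table. Cxcr4 is lowest in the libraries headed Cal, with a mean of 6.18%, and Cxcl12 in those headed Model, with a mean of 9.55%.

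Levels of different genes were compared per kilobase of the deposited gene length, which is that of the mouse gene. Ratios within a library do not depend on its size factor. The methods name rat reference sequences while the identifiers are those of mouse genes, so how completely each gene was counted is unknown. The order of the 3 genes by level is therefore uncertain. On this scale Ackr3 was the most abundant of the 3, with a mean of 869 normalized counts per kilobase in Model and 485 in Cal. Its place in Cal depended on the lengths, 8176 bases for Cxcl12 and 3348 for Ackr3. Before division, Cxcl12 averaged 2273 normalized counts in the libraries headed Cal and Ackr3 1624. The level of Cxcl12 was 43.4 per kilobase in Model and 278 in Cal, and that of Cxcr4 19.7 and 5.08. The ratio of Cxcl12 to Cxcr4 per kilobase was 1.62 to 3.02 in the libraries headed Model and 4.84 to 7.17 in those headed Con. In those headed Cal it was 36.4 to 80.3. The ranges did not overlap, but Cxcr4 was chosen for its low values in Cal against Con, so this ratio is a description. Cxcl12 itself was 1.63-fold lower in Cal than in Con, and the ratios in Cal rest on 8, 6 and 17 reads of Cxcr4. The ratio of Cxcl12 to Ackr3 was 0.0360 to 0.0689 in Model and 0.549 to 0.599 in Cal, also apart. The ratio of Ackr3 to Cxcr4, 23.6 to 67.5 in Model and 63.8 to 146 in Cal, overlapped.

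**Figure D4:**
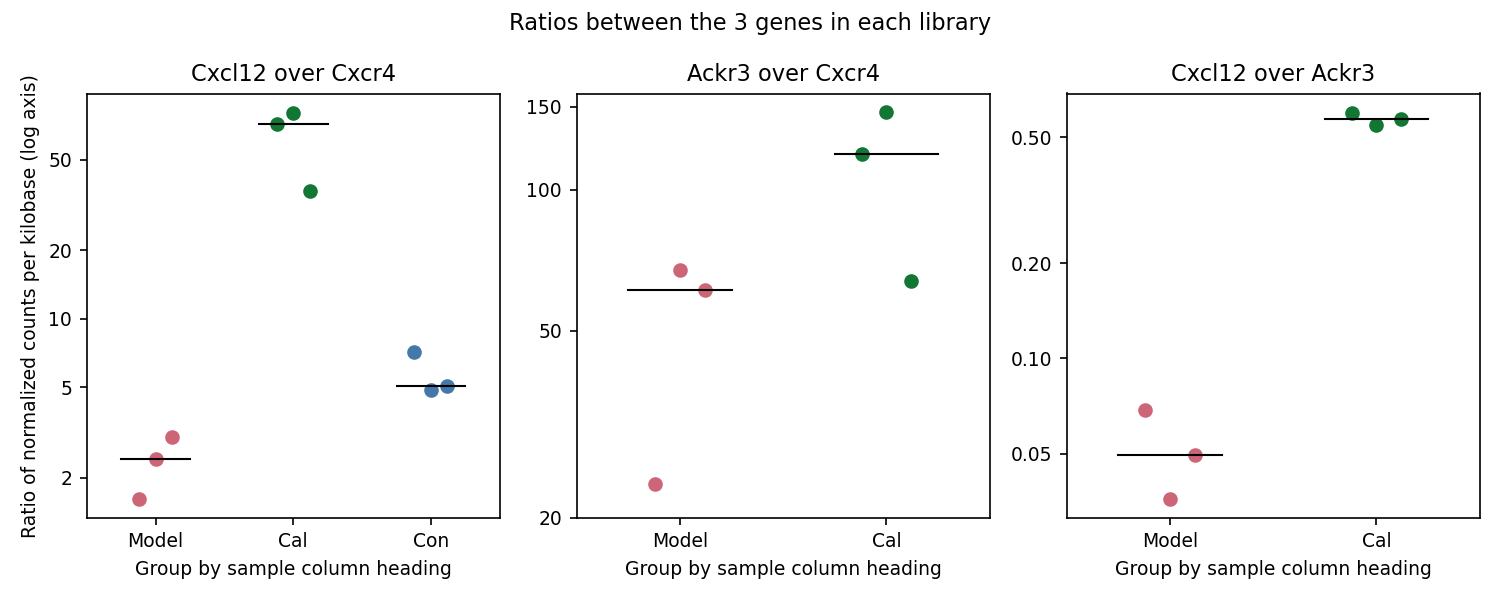
Ratios between the 3 genes in each library, from normalized counts per kilobase (log axes), by sample heading. The ratio of Cxcl12 to Cxcr4 is 36.4 to 80.3 in the libraries headed Cal, where Cxcr4 was chosen for its low values against Con. Its ranges in the 3 groups are apart, while the ratio of Ackr3 to Cxcr4 overlaps between Model and Cal.

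Genes with the most similar pattern were ranked by Pearson's r of log2 values, which is given as a description because the libraries share their groups. Over 9 libraries and 958 genes with a mean of at least 50 in their highest group, Cxcr4 was closest to Tifab (r = 0.940), Klf2 (r = 0.940) and Hhex (r = 0.939). Tifab and Hhex entered only through the libraries headed Con, where their means were 58.3 ± 5.40 and 77.8 ± 14.4 (SD, n = 3 each). Klf2, a shear-responsive transcription factor of endothelium, had means of 1600 ± 358 in Con, 989 ± 146 in Model and 451 ± 42.8 in Cal on the common scale (SD, n = 3 each). Cxcl12 was closest to Stab1 (r = 0.997), a scavenger receptor, Abca9 (r = 0.997) and Adamts10 (r = 0.996), and its r with Cxcr4 was 0.235. Stab1 had means of 1358 ± 102 in Con, 288 ± 40.4 in Model and 979 ± 72.2 in Cal. Ackr3, over 6 libraries and 3679 genes, was closest to Gm12966 (r = 0.999), Atpif1 (r = 0.996) and Kars (r = 0.995).

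Beside the 3 genes, 118 genes of the pathway were followed. In the libraries headed Cal and Model 50 of them were listed and 34 passed the call, 12 higher and 22 lower in Cal, which is 68.0% against 60.1% of all listed genes. Their median log2 difference was -0.83 against -0.52 for all listed genes. The split was 17 higher and 17 lower after median-ratio scaling, and 14 higher and 20 lower after quantile normalization. In the libraries headed Cal and Con 40 were listed and 18 passed, 11 higher and 7 lower, which is 45.0% against 29.0%, with a split of 7 and 12 after quantile normalization and 7 and 11 after median-ratio scaling. The median was 0.04 there against 0.37 for all listed genes. In the next paragraphs, a log2 difference is Cal minus Model or Cal minus Con by sample heading, called by limma as above.

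Among the other ligands of CXCR4 and ACKR3, 1 of 4 listed was higher and 3 were lower in the libraries headed Cal than in Model. Cxcl11, an interferon-induced ligand of ACKR3 and CXCR3, had a normalized count of 38.3 ± 45.6 in Cal and 1650 ± 952 in Model, with a log2 difference of -5.99, and its libraries varied widely. In the second table it was at 42.7 ± 50.8 in Cal and 0.327 ± 0.567 in Con. Adm, the vasodilator adrenomedullin, which ACKR3 also takes up, was lower in Cal by a log2 difference of -1.45, and Penk, a precursor of opioid peptides that ACKR3 binds, was higher by 1.69. Cxcl14 was at -1.14 and missed the fold limit after both rescalings.

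Of the co-receptors, Ramp3, a partner of the adrenomedullin receptor, was higher in Cal than in Model by 2.99, and Cd44, a hyaluronan receptor, was lower at -1.80. Sdc4, a heparan sulfate proteoglycan, was higher in Cal than in Con by 3.60, with normalized counts of 4358 ± 271 and 360 ± 31.3 (SD, n = 3 each). Of the proteases that trim CXCL12, the metalloproteinases Mmp13, Mmp3 and Mmp14 were lower in Cal than in Model, at -3.01, -2.08 and -1.77. The metalloproteinase Mmp2 went the other way, at 0.77 and under the fold limit. It passed the call as higher after quantile normalization (1.21) and median-ratio scaling (1.06). Dpp4, which removes the amino end of CXCL12, and the cathepsin gene Ctsk were higher by 1.02 and 1.19, and both missed the fold limit after quantile normalization. Mmp13 was higher in Cal than in Con by 3.54.

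Of 19 listed genes of G protein coupling and migration, 2 were higher and 7 lower in Cal than in Model, with 4 and 7 after quantile normalization and 4 and 4 after median-ratio scaling. Pik3r5, a regulatory subunit of the phosphoinositide 3-kinase that G proteins activate, was at -2.04, Vav1, an exchange factor of leukocytes, at -1.66, and Jak2 at -1.61. Mapk3, the kinase ERK1, was higher by 1.47. Against Con, Pik3r5 was higher in Cal by 3.15 and Pik3cg, a catalytic subunit of the same kinase, lower at -1.85. Of 4 listed genes of desensitization and trafficking, 2 were higher in Cal than in Model, and 3 after either rescaling. Rgs2, which ends G protein signals, was higher by 1.93. Arrb2, an arrestin that ACKR3 and CXCR4 recruit, was higher by 1.33. The arrestin gene Arrb1 was at 0.97, under the fold limit, and passed as higher after quantile normalization (1.14) and median-ratio scaling (1.27). Against Con, 7 genes of this list were listed, 1 higher and 2 lower in Cal, with 1 higher and 4 lower after either rescaling. Rgs16 was higher by 3.94, and Rgs14 and Rgs18 were lower at -2.21 and -1.65, with low means of 4.12 and 6.46 in Cal.

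Of the regulators of transcription, Hif1a, the oxygen-regulated factor that induces Cxcr4 and Cxcl12, was lower in Cal than in Model at -2.30, with normalized counts of 1187 ± 201 and 5952 ± 1599 (SD, n = 3 each). Egln3, a prolyl hydroxylase that acts on it, was higher by 1.30, and Tgfb1 by 2.06. Klf2 was lower at -1.12 and missed the fold limit after quantile normalization (-0.79) and median-ratio scaling (-0.83). Of 5 regulators listed, 2 were higher and 2 lower in Cal than in Model, with 2 and 1 after either rescaling. Against Con, the NF-kappaB subunit gene Rela was higher in Cal, with 2635 ± 369 and 655 ± 30.8 normalized counts (SD, n = 3 each), and Klf2 was lower at -1.81. Of 9 other chemokine receptors listed, 6 were lower and 2 higher in Cal than in Model, with the same counts after both rescalings. Ccr7 of dendritic and T cells was at -3.85, Cxcr2 of neutrophils at -3.75, and the scavenging receptor Ackr1 of venules at -3.62. Ccr7 and Cxcr2 were near 0 in Cal, with means of 1.75 and 2.07 and at most 4 reads in a library, so the size of their differences is uncertain. Ackr4, another scavenging receptor, was higher by 3.35, and Cx3cr1 of monocytes had 60.5 ± 13.9 normalized counts in Cal and 1.53 ± 1.33 in Model. Against Con, 5 were listed, 3 lower and 1 higher in Cal, with 4 lower and 1 higher after either rescaling. Ccr2, Cx3cr1 and Ackr2 were lower at -2.11, -1.54 and -1.53, and Ccrl2 was higher by 2.28.

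**Figure D5:**
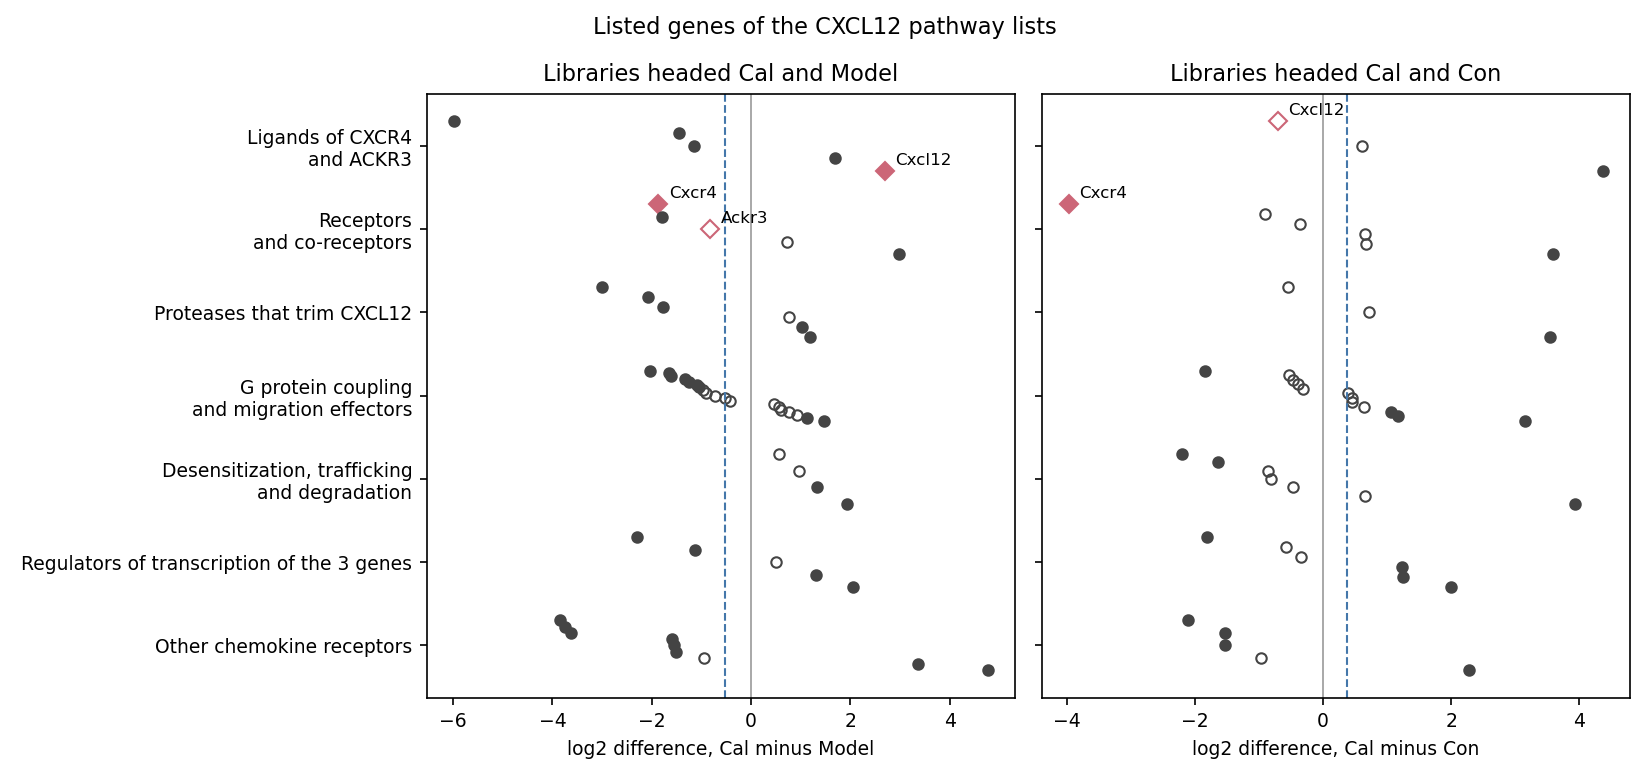
Log2 difference of each listed gene of the pathway lists (points, 1 row per list), Cal minus Model on the left and Cal minus Con on the right, by sample heading. Cxcl11 lies lowest on the left, at -5.99, and 6 of the 9 other chemokine receptors listed there pass the call below 0.

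Markers of other cell types were compared between the same libraries. Over all listed genes, 28.4% passed as higher and 31.6% as lower in Cal than in Model, and 18.0% and 10.9% against Con. In bulk tissue, fewer cells of a type and less RNA per cell cannot be told apart. Of 8 neutrophil markers, 8 were listed and 8 were lower in Cal than in Model, with sums of 85.8 to 254 normalized counts in Cal and 1064 to 1171 in Model. Cxcr2 is in both this list and that of the chemokine receptors. In the second table, S100a8 and S100a9 were the listed neutrophil markers, and both were higher in Cal than in Con, with sums of 48.5 to 183 and 13.0 to 28.5, while Cxcr4 was lower. Of 8 T cell markers, Lck and Il7r were listed in the first table and lower in Cal, and none was listed in the second. The 5 listed macrophage and monocyte markers, 2 called higher and 1 lower in Cal, had sums of 3595 to 4296 in Cal and 1562 to 2182 in Model. Of 10 markers of general endothelium, a source of CXCL12, 9 were listed and 5 passed as higher in Cal than in Model (9 after quantile normalization and 8 after median-ratio scaling), with sums of 15513 to 18229 in Cal and 6685 to 8566 in Model. Of the same list, 7 were listed for Cal and Con, 1 (Cldn5, which missed the fold limit after quantile normalization) passed as higher and 2 as lower in Cal, with sums of 14304 to 16084 in Cal and 20968 to 24348 in Con. For fibroblasts, which are stromal cells, the sums of the 5 listed markers overlapped, with 19172 to 23291 in Cal and 17132.5 to 24097 in Model. Of these, 2 passed as higher in Cal, while Dcn was at -0.68, under the fold limit, and at 0.15 after quantile normalization. The part of these cell types in the results for Cxcr4, Cxcl12 and Ackr3 was not tested.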

How the data were processed

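Poly(A)-selected cardiac RNA of 3 rats per group was sequenced. Per the methods, the authors aligned to rat reference sequences, computed gene counts and ran DESeq2. The submitters' processing notes name Bowtie 0.12.2 and the builds mm8 and mm9 with no role. The deposited signal is a read count divided by a size factor per library, computed by the authors separately for each table, and whole reads were recovered for 100% of values within 0.01 reads. The deposited p-values (adjusted) of the authors' comparisons were read only to check listing, and 0 listed genes had one of 0.05 or more. Their fold changes were not used. Depth over unlisted genes is unknown. There were 0 columns of other samples. Replicate libraries differed by more than sampling noise.

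Differences were fitted with limma 3.58.1 (trended prior variance, R 4.3.3) on log2(normalized count + 1), with Benjamini-Hochberg adjustment over all genes listed in a table. The design assumed normalized values, and count tests on recovered reads (DESeq2 1.42.0 and edgeR 4.0.16) were alternatives, as were other pseudocounts (10 and 0.1), a mean of at least 10, quantile and median-ratio scaling, a replicate block and leaving out each library. The limma fit was tested on simulated data with the same dispersion for every gene and few changed genes. That simulation does not cover the spread between these replicates or the 60.1% of genes called for Cal and Model. With 3 against 3 libraries an exact two-sided permutation test cannot give a p under 0.1, so none is given. Named genes are the 3 genes, listed genes of the pathway lists, and for each of the 3 genes the 3 with the highest Pearson correlation among genes with a mean of at least 50 in their highest group. Inka1 and Hey1 were named after their values were seen. The 3 genes and all lists were chosen with earlier results of these data known.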

Additional observations from a re-analysis of the deposited data

How the results depend on the processing

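For Cal minus Model, Cxcl12 and Ackr3 kept their direction and their side of the call in all 14 alternatives. Cxcr4 kept its direction too, but it was chosen for its low values in these Cal libraries, so this is a description. Leaving out 1 library gave -2.22 to -1.55 for Cxcr4, 2.51 to 2.81 for Cxcl12 and -0.98 to -0.71 for Ackr3. For Cal minus Con, Cxcr4 was -3.13 with a pseudocount of 10 and -4.48 after quantile normalization, and Cxcl12 was -1.16 after quantile normalization and -0.995 after median-ratio scaling. Leaving out 1 library gave -4.33 to -3.71 for Cxcr4 and -0.75 to -0.64 for Cxcl12. Cxcr4 was chosen on this comparison, so its range is a description and not support. Genes called numbered 2575 for Cal and Model (2344 to 2704 without 1 library) and 712 for Cal and Con (679 to 775). Called genes split into 1219 higher and 1356 lower for Cal and Model, against 1646 and 1047 after median-ratio scaling. They split into 443 and 269 for Cal and Con, against 348 and 387 after quantile normalization and 342 and 447 after median-ratio scaling. The cause was not tested. Pathway genes called ranged from 32 to 37 and from 17 to 19. Quantile normalization moved the median of all genes by 0.42 and -0.42 in the tables, and median-ratio scaling by 0.30 and -0.28.

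Replicate numbers are shared between groups but come from different animals, and same-numbered libraries did not deviate together (correlations of -0.12 to 0.11 in the first table and -0.14 to -0.02 in the second). With the replicate block, limma gave adjusted p-values of 0.000782 for Cxcl12 and 0.00715 for Ackr3 in Cal and Model, and the difference of Cxcr4 was -1.87 as without it, with 2574 and 713 genes called. Fold changes of Cxcr4 rest on 31 reads in the libraries headed Cal.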

Other observations

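The other marker lists gave the following counts of listed genes that passed the call, by sample heading. Over all listed genes, 28.4% passed as higher and 31.6% as lower in Cal than in Model, and 18.0% and 10.9% against Con. Lists of a few genes can lie near these shares. For Cal and Model, 5 of 6 listed arterial endothelial markers were higher and 1 lower in Cal, 1 of 3 venous markers was higher and 2 were lower, and 1 of 3 lymphatic markers was higher and 1 (Pdpn, which did not pass after median-ratio scaling) lower. Of the fibroblast markers 5 were listed and 2 were higher (4 after quantile normalization and 3 after median-ratio scaling), and of the pericyte and smooth muscle markers 3 were listed and none passed as called, all 3 with an adjusted p of 0.00408 to 0.00902 from limma and a log2 difference under 1, while 3 of 3 passed as higher after quantile normalization and none after median-ratio scaling. Of the macrophage and monocyte markers 5 were listed, 2 higher (3 after quantile normalization and 4 after median-ratio scaling) and 1 lower, and the listed cardiomyocyte marker (Nppa) and B cell marker (Pax5) were lower, although Nppa did not pass after either rescaling. For Cal and Con, 2 of 4 arterial markers were lower (3 after either rescaling), 1 of 2 venous markers was higher and 1 lower, 1 of 4 fibroblast markers was lower (2 after either rescaling), 1 of 5 pericyte and smooth muscle markers was lower (2 after quantile normalization), and 1 of 2 macrophage and monocyte markers was higher. The 2 listed cardiomyocyte markers, Myh6 and Ryr2, were under the fold limit, and no lymphatic or B cell marker was listed.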
